A study of Mus musculus with 24 samples.

Results

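Receptors for the cytokines that drive myeloid and erythroid development were compared in mouse B cell progenitors, myeloid progenitors (MP) and haematopoietic stem cells (HSC). The 9 genes are Csf1r, Csf2ra, Csf2rb, Csf2rb2, Csf3r, Il3ra, Il6ra, Il5ra and Epor. All 14 probe sets annotated to one of these symbols alone were taken, out of 34958 probe sets with a single gene symbol that stand for 18194 genes. A probe set is a group of short probes on an Affymetrix array that reports 1 value for a transcript. Where a gene had several, the one with the highest mean over the 13 arrays is named first, and levels were not set against each other between probe sets. One further probe set is annotated to both Csf2rb and Csf2rb2 and was left out.

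The populations were sorted by flow cytometry from bone marrow of 129ola mice, 8 to 12 weeks old. Wildtype B cell progenitors were measured on 2 arrays, MP on 3 hypomorph and 3 wildtype arrays, and HSC on 3 hypomorph and 2 wildtype arrays. The hypomorph genotype is Dnmt1-/chip, a null allele over an allele of reduced function, and the wildtype is Dnmt1+/+, which is also the genotype of the B progenitors. Dnmt1 is the enzyme that maintains DNA methylation through cell division. The genotype is that of the whole mouse, so the cells that surround the HSC and MP in the marrow carry it too. RNA of 35000 to 100000 sorted cells entered each labelling, by a protocol for small samples. Values are the deposited RMA values, read as log2 intensities, so a difference is the log2 of a fold. Nothing in the labels says that arrays of a group came from separate mice, so a p-value here reflects the scatter among arrays, which may be technical.

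Csf1r is a receptor tyrosine kinase that binds Csf1 and Il34 and serves monocytes and macrophages. The other receptors belong to the class I cytokine receptor family and signal through Jak kinases and Stat factors. Csf2ra, Il3ra and Il5ra are the ligand-specific alpha chains for GM-CSF, interleukin 3 and interleukin 5. Each pairs with the common beta chain Csf2rb, and mice have a second beta chain, Csf2rb2, that serves interleukin 3. Csf3r and Epor form homodimers that bind G-CSF and erythropoietin, and Il6ra binds interleukin 6 and signals through Il6st.

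In the RefSeq annotation of build GRCm38.p6, Csf2rb (chr15:78325800-78351001) and Csf2rb2 (chr15:78282507-78305721) are neighbours on chromosome 15. The other members are spread over 7 chromosomes, from Csf3r on chromosome 4 and Il6ra on chromosome 3 to Epor on chromosome 9. Promoter windows ran from 250 bases before to 50 bases after the annotated start. They were taken for 7 of the 9 genes from a RefSeq table of the same build. Those of 4 of these 7 receptors are shown. They differ in CG dinucleotides, the sites that Dnmt1 maintains, and in motifs of the factors listed further on. DNA methylation was not analysed here. Capitals mark matches on either strand to 3 motifs. For GATA factors AGATAA was searched. The variant TGATAA was counted with it. For PU.1, the product of Spi1, GAGGAA was searched. For C/EBP factors ATTGC was searched. The windows lie at chr15:78305672-78305971 (minus strand), chr4:126024409-126024708 (plus strand, inside the span of the gene), chr3:89913147-89913446 (minus strand) and chr9:21963527-21963826 (minus strand), and each is written 5′ to 3′ along its gene.
Csf2rb2: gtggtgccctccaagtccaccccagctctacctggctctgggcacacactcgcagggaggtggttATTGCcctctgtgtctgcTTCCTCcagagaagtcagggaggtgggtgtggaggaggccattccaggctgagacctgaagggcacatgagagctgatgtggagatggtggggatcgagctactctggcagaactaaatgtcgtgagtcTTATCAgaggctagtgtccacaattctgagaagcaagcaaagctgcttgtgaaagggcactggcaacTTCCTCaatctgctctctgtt
Csf3r: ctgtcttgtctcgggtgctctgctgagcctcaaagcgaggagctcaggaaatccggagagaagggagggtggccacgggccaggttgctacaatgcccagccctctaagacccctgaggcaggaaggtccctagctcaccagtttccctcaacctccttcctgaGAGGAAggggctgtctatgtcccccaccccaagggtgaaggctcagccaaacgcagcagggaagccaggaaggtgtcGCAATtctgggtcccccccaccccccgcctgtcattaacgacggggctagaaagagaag
Il6ra: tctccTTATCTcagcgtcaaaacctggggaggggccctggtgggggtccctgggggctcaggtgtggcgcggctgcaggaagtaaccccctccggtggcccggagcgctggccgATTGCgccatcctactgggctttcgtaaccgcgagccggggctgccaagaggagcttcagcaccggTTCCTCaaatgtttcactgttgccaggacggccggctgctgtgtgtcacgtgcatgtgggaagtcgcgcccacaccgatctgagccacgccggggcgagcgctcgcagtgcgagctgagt
Epor: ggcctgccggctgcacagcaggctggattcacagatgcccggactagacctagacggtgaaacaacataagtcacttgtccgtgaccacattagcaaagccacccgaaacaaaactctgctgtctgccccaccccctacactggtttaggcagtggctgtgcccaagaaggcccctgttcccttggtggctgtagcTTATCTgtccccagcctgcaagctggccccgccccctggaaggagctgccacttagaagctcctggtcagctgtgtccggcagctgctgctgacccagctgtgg

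CG dinucleotides numbered 3 in the Csf2rb2 window, 9 in that of Csf3r, 25 in that of Il6ra and 7 in that of Epor, against a median of 7.0 over 32851 promoters of the same length. The windows not printed held 23 in Csf2ra, 35 in Il3ra and 4 in Il5ra. A GATA motif stood 54 bases before the start in Epor, 245 before it in Il6ra, 74 before it in Il5ra and 38 before it in Csf2rb2, and 18.6% of all promoters hold one. GAGGAA, which 28.3% of all promoters hold, occurred 86 bases before the start in Csf3r, 70 before it in Il6ra, at 2 places in each of Csf2rb2 and Csf2ra, and once in Il5ra. ATTGC, in 26.4% of all promoters, occurred once in each of Csf2rb2, Csf3r, Il6ra and Il3ra. A Stat motif, TTC and GAA with 3 bases between them, is present in 8.3% of promoters and stood 15 bases before the start in Csf2rb2 only, in lower case above. These matches describe the sequence and show no binding.

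Dnmt1 was checked first. Its probe set with the largest differences read 8.48 to 9.31 in hypomorph HSC against 11.58 to 11.80 in wildtype HSC, and 8.01 to 8.24 in hypomorph MP against 11.30 to 11.73 in wildtype MP. The populations bore their labels in marker genes. Mean levels of 12 B lineage markers were 11.31 to 11.36 in B progenitors and at most 5.26 on any other array. Markers of granulocyte-monocyte progenitors averaged 12.12 to 12.39 on the MP arrays, and 10 stem cell markers averaged 8.37 to 9.21 on the HSC arrays against at most 6.78 elsewhere. Hypomorph and wildtype HSC differed in their markers, and 8 of 10 marker lists had mean levels that did not overlap between them. Of all single probe sets, 31.6% did not overlap between these groups. The share for means over several genes, as in the lists, was not computed and may differ. Over all genes, each read by its brightest probe set, 3.33% were called lower in hypomorph HSC and 2.98% higher. The stem cell markers averaged 8.37 to 8.79 in hypomorph HSC and 9.07 to 9.21 in wildtype HSC, with 3 called lower and 1 higher. The 8 granulocyte-monocyte progenitor markers averaged 9.17 to 9.71 in hypomorph HSC and 7.79 to 8.38 in wildtype HSC, with 3 called higher. The 9 mast cell and basophil markers averaged 6.77 to 7.53 in hypomorph HSC and 4.93 to 5.37 in wildtype HSC, with 5 called higher. Erythroid markers averaged 7.38 to 7.59 in hypomorph HSC and 6.44 to 6.73 in wildtype HSC, and markers of mature neutrophils and monocytes 6.24 to 7.12 in hypomorph HSC and 5.18 to 6.09 in wildtype HSC. Their part in the receptor differences between HSC was not tested. In sorted populations measured in bulk, fewer cells of a type and less RNA per cell cannot be told apart.

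Receptor probe sets were called more often between cell types than between genotypes. Between B progenitors and wildtype MP, 11 of the 14 probe sets were called, all lower in B progenitors, where 22.3% of all probe sets were called and 12.8% were called lower. A call is an adjusted p under 0.05 from limma, with Benjamini-Hochberg adjustment over all 34958 probe sets. Between B progenitors and wildtype HSC 7 were called, all lower in B progenitors, against 28.1% called and 16.5% called lower over all probe sets. MP exceeded HSC in 4 probe sets in the wildtype, where 18.2% of all probe sets were called and 7.97% called higher, and in 4 in the hypomorph, where 4.96% were called and 1.99% called higher. The genotype call was on 1 probe set in MP, lower in the hypomorph, where 0.22% of all probe sets were called and 0.106% called lower. In HSC limma called none of the 14, against 5.41% of all probe sets, and 3 of the 14 had an unadjusted p under 0.05, where 20.1% of all probe sets did. The median log2 difference of the 14 probe sets was -2.33 for B progenitors minus MP, -1.06 for B progenitors minus HSC and 0.64 for wildtype MP minus HSC. Over all probe sets these medians were 0.03, -0.08 and -0.12.

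**Figure D1:**
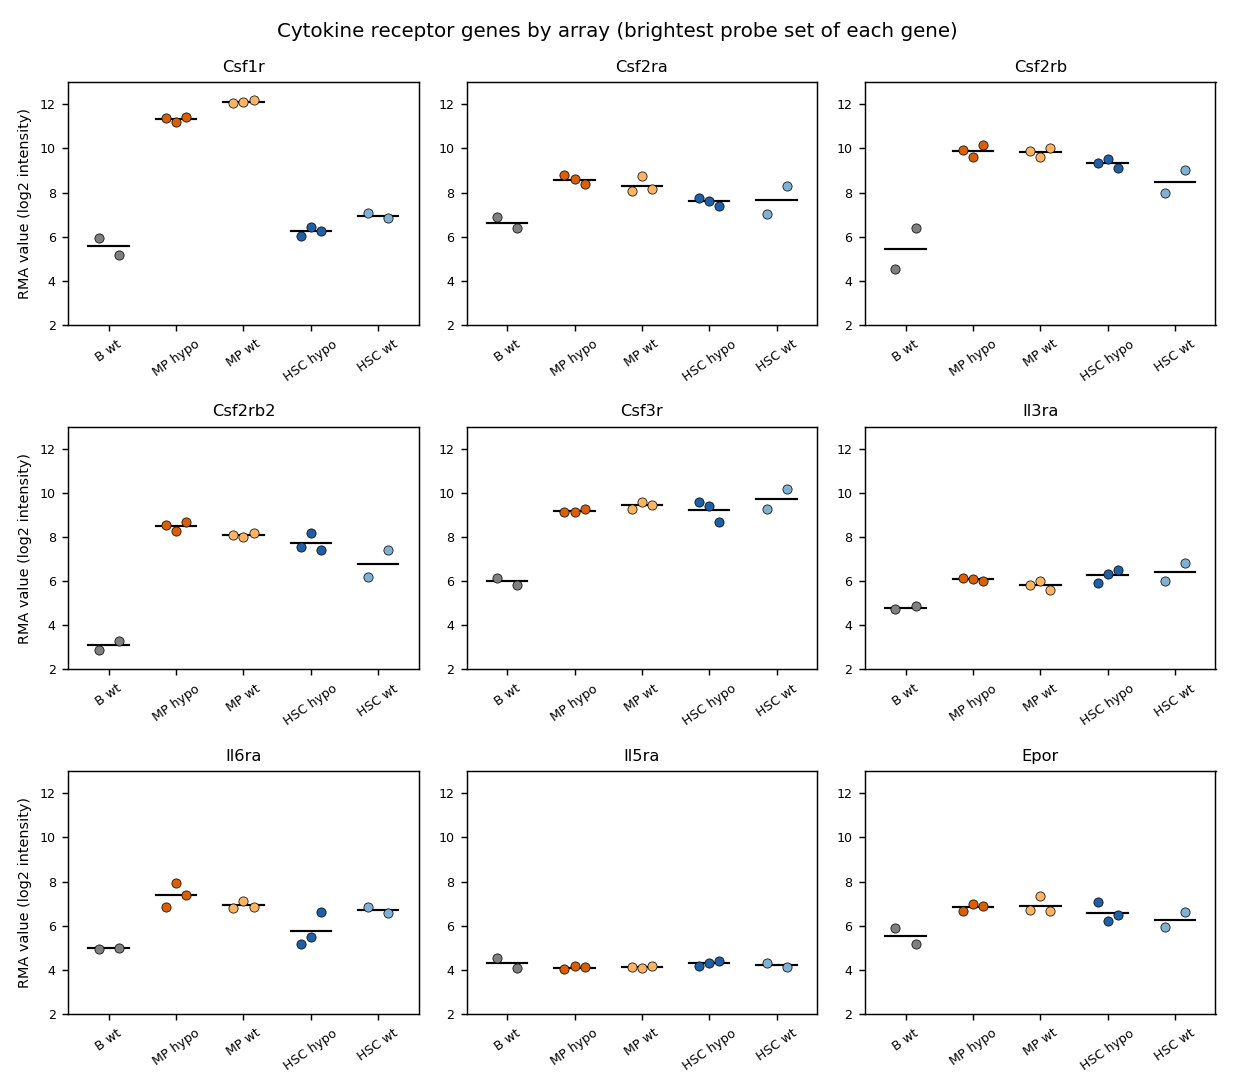
RMA value (log2 intensity, vertical axis) of the first probe set of each of the 9 receptor genes on every array of the 5 groups, with points for arrays and bars for group means. Csf1r stands at 11.22 to 12.21 in MP and at most at 7.06 in the other groups, Csf2rb2 and Csf3r are lowest in B progenitors, and Il5ra stays between 4.05 and 4.55 on all arrays.

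Csf1r, the receptor of macrophage colony-stimulating factor, had the largest difference between MP and HSC of the 9 receptors. By its brightest probe set (1419872_at) it read 5.96 and 5.16 in B progenitors, 11.39, 11.22 and 11.41 in hypomorph MP, 12.05, 12.10 and 12.21 in wildtype MP, 6.04, 6.42 and 6.27 in hypomorph HSC, and 7.06 and 6.85 in wildtype HSC. All 5 groups were separate from each other, in the order wildtype MP, hypomorph MP, wildtype HSC, hypomorph HSC and B progenitors. Csf1r was 35.8-fold higher in wildtype MP than in wildtype HSC (log2 fold change 5.16, SE 0.22, limma adjusted p 8.53e-08) and 34.2-fold higher in hypomorph MP than in hypomorph HSC (5.10, SE 0.19, 7.61e-08). In B progenitors it was 94.3-fold lower than in wildtype MP (-6.56, SE 0.22, 1.22e-09) and 2.63-fold lower than in wildtype HSC (-1.40, SE 0.24, 0.000795). The remaining probe sets gave the same order of cell types with smaller differences. Wildtype MP exceeded wildtype HSC by 3.47 on 1419873_s_at and by 2.00 on 1423593_a_at, and hypomorph MP exceeded hypomorph HSC by 2.82 and 0.78, all called. The last of these, with adjusted p 0.0331, was no longer called after leaving out hypomorph HSC array 1 or 2, any hypomorph MP array or wildtype MP array 3 (adjusted p 0.0522 to 0.144). B progenitors lay 0.78 below wildtype HSC on 1419873_s_at, which was not called (log2 difference -0.78, adjusted p 0.0756), and 0.73 below on 1423593_a_at (-0.73, 0.0323), a call lost without B progenitor array 1 or wildtype HSC array 2.

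All 3 Csf1r probe sets had lower values in hypomorph than in wildtype MP, with 1 of them called. On 1423593_a_at, whose suffix marks probes shared by alternative transcripts of a gene, the values were 6.15, 6.25 and 6.13 in hypomorph MP and 7.14, 7.45 and 7.47 in wildtype MP. The groups lay apart, and this was the only receptor probe set called for genotype, 2.26-fold lower in hypomorph MP (log2 fold change -1.18, SE 0.19, adjusted p 0.0252). On 1419873_s_at the values were 8.67, 8.28 and 8.83 in hypomorph MP and 9.43, 9.51 and 9.52 in wildtype MP, and the difference of -0.89 was not called (adjusted p 0.249). The brightest probe set differed by -0.78 (adjusted p 0.202), again with no overlap of the groups. The call on 1423593_a_at did not survive leaving out any of the 6 MP arrays, with adjusted p from 0.0558 to 0.175 and log2 fold changes from -1.29 to -1.12, nor the second normalization of the arrays (-0.95, 0.111). It held in 14 of 21 alternative settings. Of those 14, 7 left out an HSC or B progenitor array, which leaves the MP values unchanged. Other settings added calls in MP. The mean of the 3 probe sets was called (-0.95, adjusted p 0.00446), array weights called the brightest probe set (-0.78, 0.00847) and 1419873_s_at (-0.84, 0.0134), and the MP arrays fitted alone called the brightest (-0.78, 0.0431). In HSC the brightest probe set was lower in hypomorph than in wildtype arrays (log2 difference -0.71, SE 0.22, adjusted p 0.0823), with 6.04 to 6.42 against 6.85 to 7.06 and no overlap. It was called in 3 of 23 alternative settings, among them the second normalization (-0.85, 0.0216). The other probe sets differed by -0.24 and 0.05 between the HSC genotypes with all arrays. The genotype effect in HSC minus that in MP was called on 1423593_a_at alone (1.23, SE 0.28, adjusted p 0.0463, with 2.19% of all probe sets called and 1.27% called higher), and was 0.06 and 0.65 on the others. It was called in 8 of 21 alternative settings. Mean levels of 7 of the 10 marker lists did not overlap between the MP genotypes, where 22.2% of all single probe sets did not. Here too the share for means over several genes was not computed. Markers of macrophages, a list that includes Csf1r itself, averaged 5.97 to 6.32 in hypomorph MP and 5.78 to 5.96 in wildtype MP. Those of mature neutrophils and monocytes averaged 6.29 to 7.06 in hypomorph MP and 5.92 to 6.18 in wildtype MP. Granulocyte-monocyte progenitor markers read 12.30 to 12.39 in hypomorph MP and 12.12 to 12.17 in wildtype MP, and mast cell and basophil markers 7.80 to 7.98 in hypomorph MP and 7.37 to 7.63 in wildtype MP. T and NK cell markers read 5.87 to 5.94 in hypomorph MP and 5.63 to 5.78 in wildtype MP. Lower in the hypomorph were stem cell markers, at 5.96 to 6.21 in hypomorph MP and 6.28 to 6.78 in wildtype MP, and B lineage markers, at 4.83 to 4.91 in hypomorph MP and 5.13 to 5.26 in wildtype MP. Their part in the Csf1r values was not tested.

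**Figure D2:**
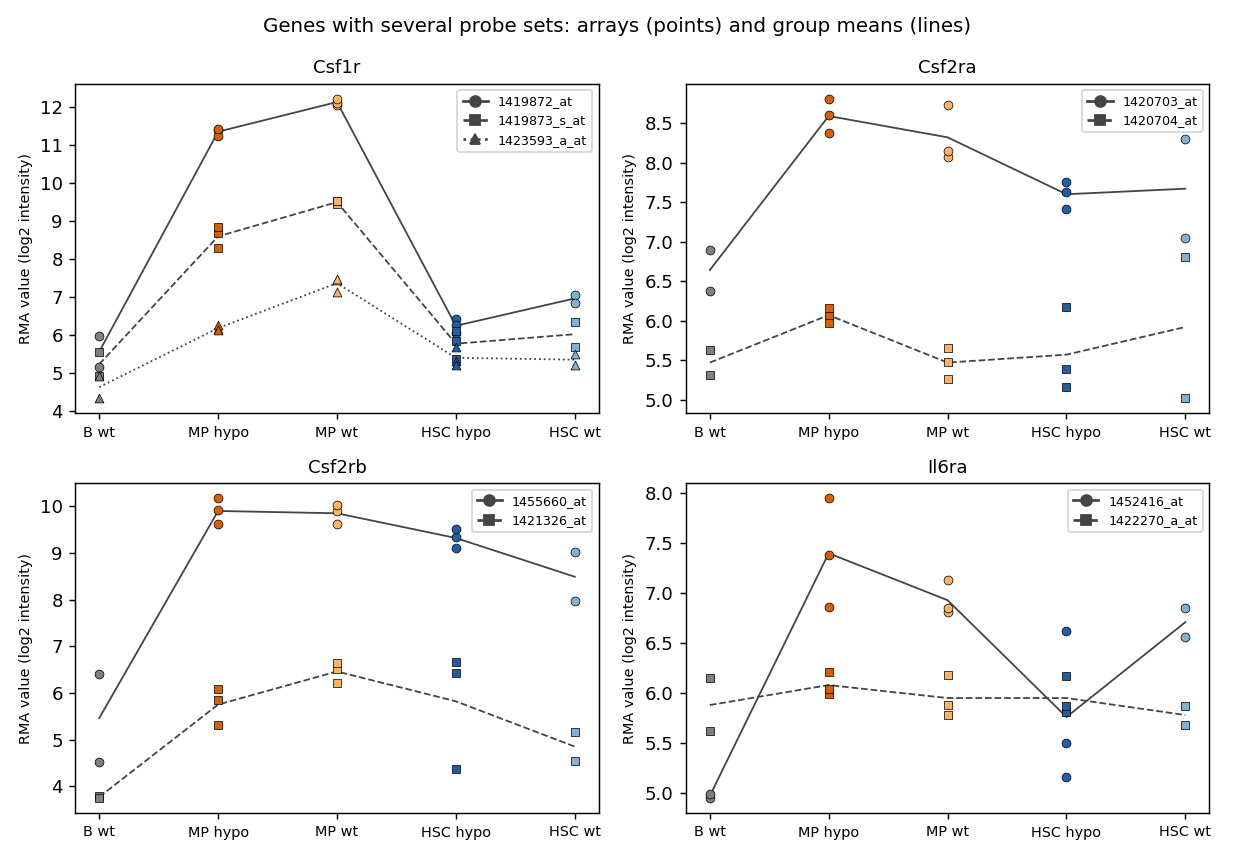
RMA values (log2 intensity) of every probe set of the 4 receptor genes with more than 1, with points for arrays and lines through the group means. The 3 Csf1r probe sets fall in the same order of cell types, while the second probe sets of Csf2ra and Il6ra do not follow the first.

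By their first probe sets the beta chains, which carry the signal of GM-CSF, interleukin 3 and interleukin 5, were high in MP and HSC and low in B progenitors. Csf2rb (1455660_at) read 4.52 and 6.41 in B progenitors, 9.91, 9.62 and 10.17 in hypomorph MP, 9.90, 9.63 and 10.03 in wildtype MP, 9.34, 9.52 and 9.10 in hypomorph HSC, and 7.98 and 9.01 in wildtype HSC. Csf2rb2 (1449360_at) read 2.86 and 3.31 in B progenitors, 8.55, 8.26 and 8.67 in hypomorph MP, 8.10, 7.99 and 8.19 in wildtype MP, 7.56, 8.19 and 7.43 in hypomorph HSC, and 6.21 and 7.40 in wildtype HSC. On these 2 probe sets no B progenitor array reached the lowest HSC or MP array, and the wildtype HSC lay below all hypomorph HSC. In B progenitors Csf2rb was 20.9-fold lower than in wildtype MP (log2 fold change -4.39, SE 0.45, adjusted p 1.86e-05) and 8.17-fold lower than in wildtype HSC (-3.03, SE 0.49, 0.000554). The second Csf2rb probe set (1421326_at) shared the call against wildtype MP (-2.69, SE 0.53, 0.00285). It did not share that against wildtype HSC (-1.08, SE 0.58, 0.203), which averaged 4.85 there. Csf2rb2 was lower in B progenitors than in wildtype MP by a log2 difference of -5.01 (SE 0.32, 3.22e-07) and than in wildtype HSC by -3.72 (SE 0.35, 8.84e-06). On the first probe sets both B progenitor arrays for Csf2rb2, and 1 for Csf2rb, lie under 4.64, the median of all values. Whether they are above background is not known, so these differences may be lower bounds. The 2 genes tracked each other over the 13 arrays (Pearson r 0.98). This describes arrays that share their cell types. The 2 genes are near-identical copies, so it is uncertain how far a probe set of either reads the other.

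Between MP and HSC the beta chains gave larger values in the wildtype than in the hypomorph, and no difference between these values was called with all arrays. Csf2rb2 rose 2.44-fold in wildtype MP over wildtype HSC (log2 fold change 1.29, SE 0.32, adjusted p 0.0156), and the value in hypomorph MP over hypomorph HSC was 0.76 (SE 0.29, 0.194). The wildtype call was lost without wildtype HSC array 1 (0.69, adjusted p 0.157) and without wildtype MP array 3 (1.24, 0.0542). Csf2rb differed by 1.36 in the wildtype (SE 0.45, 0.0552) and by 0.58 in the hypomorph (0.587). Its second probe set (1421326_at) differed by 1.61 in the wildtype (0.0561) and by -0.06 in the hypomorph (0.976). The difference of the genotype effects on it was 1.67 (0.227), and was called without hypomorph HSC array 3 (2.40, 0.00623) and with array weights (2.23, 0.0174). Both Csf2rb values lay close to the threshold and passed it in several alternative settings, among them the filter at the median (0.0366 and 0.0355).

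In HSC all 3 beta chain probe sets were higher on average in the hypomorph, and none was called. The log2 difference of hypomorph minus wildtype HSC was 0.92 for Csf2rb2 (SE 0.32, 95% interval 0.23 to 1.62, adjusted p 0.123) and 0.83 for Csf2rb (SE 0.45, interval -0.15 to 1.80, 0.335). On 1421326_at Csf2rb read 6.66, 6.43 and 4.36 in hypomorph HSC and 4.54 and 5.16 in wildtype HSC, a difference of 0.97 (adjusted p 0.341). Hypomorph array 3 lies under both wildtype arrays there, and without it the difference was 1.70 (adjusted p 0.00607). On several receptors the wildtype HSC arrays were themselves far apart. On first probe sets, array 2 minus array 1 was 1.19 in Csf2rb2, 1.03 in Csf2rb, 1.26 in Csf2ra, 0.86 in Csf3r, 0.81 in Il3ra and 0.71 in Epor, against -0.22 in Csf1r, -0.29 in Il6ra and -0.20 in Il5ra. On the others it ran from -1.79 in Csf2ra to 0.62 in Csf2rb. The signed median over all probe sets was 0.04. That median shows no general shift between the 2 arrays, but not how large a usual difference between them is. Without wildtype HSC array 2 the Csf2rb2 difference was 1.52 (adjusted p 0.0281), and without array 1 it was 0.33 (0.608). In MP the genotype values were 0.40 for Csf2rb2 (adjusted p 0.627), 0.05 for Csf2rb and -0.70 on 1421326_at, none of them called.

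The alpha chains behaved less alike. Csf2ra (1420703_at), which binds GM-CSF, read 6.90 and 6.38 in B progenitors, 8.81, 8.60 and 8.37 in hypomorph MP, 8.07, 8.73 and 8.15 in wildtype MP, 7.75, 7.63 and 7.41 in hypomorph HSC, and 7.04 and 8.30 in wildtype HSC. Hypomorph MP lay above hypomorph HSC on every array, and the wildtype HSC arrays, at 7.04 and 8.30, lay on either side of all hypomorph HSC arrays. Csf2ra was 3.21-fold lower in B progenitors than in wildtype MP (log2 fold change -1.68, SE 0.33, adjusted p 0.00278). The difference from wildtype HSC was -1.03 (SE 0.36, 0.0521). It was -1.66 and called without wildtype HSC array 1 (0.00302), and -0.40 without array 2 (0.442). The filters at the median and the 75th percentile also called it (0.0381 and 0.031). Hypomorph MP minus hypomorph HSC gave 1.00 (SE 0.30, 0.0866), and wildtype MP minus wildtype HSC gave 0.65 (0.208). The genotype values were -0.07 in HSC (95% interval -0.79 to 0.65) and 0.28 in MP (-0.37 to 0.92). A second probe set (1420704_at) read between 5.02 and 6.81, was called in none of the 7 comparisons, and had a correlation of -0.05 with the first over the 13 arrays. The Csf2ra call between B progenitors and MP was not shared by it, with a difference of 0.00 (95% interval -0.91 to 0.92).

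Il3ra, the alpha chain for interleukin 3, read 4.74 and 4.86 in B progenitors, 6.13, 6.09 and 6.02 in hypomorph MP, 5.82, 6.02 and 5.59 in wildtype MP, 5.94, 6.33 and 6.50 in hypomorph HSC, and 6.02 and 6.83 in wildtype HSC. The B progenitors stood apart from all other groups, and neighbouring HSC and MP groups overlapped in the order of their means. Il3ra was 3.07-fold lower in B progenitors than in wildtype HSC (log2 fold change -1.62, SE 0.26, adjusted p 0.000556) and 2.01-fold lower than in wildtype MP (-1.01, SE 0.24, 0.00902). The second call was lost without B progenitor array 1 (-0.95, 0.0704). Wildtype MP minus wildtype HSC gave -0.61 (SE 0.24, 0.101), the opposite sign to the beta chains. It was -1.02 and called without wildtype HSC array 1 (0.0157), and -0.21 without array 2 (0.655). The genotype values were -0.16 in HSC and 0.27 in MP, with adjusted p of 0.768 and 0.664.

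Il5ra, the alpha chain for interleukin 5 and a marker of eosinophils, lay under 4.64, the median of all values, on every array. It read 4.55 and 4.10 in B progenitors, 4.05 to 4.15 in hypomorph MP, 4.06 to 4.15 in wildtype MP, 4.19 to 4.41 in hypomorph HSC, and 4.12 and 4.31 in wildtype HSC. Group means spanned 0.22, and the largest difference in the 7 comparisons was 0.22 (B progenitors minus wildtype MP, 95% interval -0.14 to 0.57, adjusted p 0.409). Detection calls were not used here, so whether this probe set reports transcript above background is not known. It was the only one of the 14 that a filter at the median would remove, and 8 of the 14 pass one at the 75th percentile, 7.1.

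Csf3r, the receptor of G-CSF and of granulocyte development, had overlapping levels in HSC and MP. It read 6.15 and 5.83 in B progenitors, 9.15, 9.14 and 9.27 in hypomorph MP, 9.28, 9.59 and 9.44 in wildtype MP, 9.58, 9.39 and 8.69 in hypomorph HSC, and 9.29 and 10.16 in wildtype HSC. The B progenitors lay far under the rest, and MP overlapped with HSC in each genotype. Hypomorph and wildtype MP did not overlap, with closest arrays at 9.27 and 9.28. In B progenitors Csf3r was 13.3-fold lower than in wildtype HSC (log2 fold change -3.73, SE 0.31, adjusted p 3.12e-06) and 10.9-fold lower than in wildtype MP (-3.44, SE 0.28, 2.92e-06). MP minus HSC gave -0.29 in the wildtype (95% interval -0.91 to 0.33) and -0.03 in the hypomorph (-0.59 to 0.52). The genotype values were -0.51 in HSC (interval -1.12 to 0.11, adjusted p 0.35) and -0.25 in MP (0.744). Its promoter window, printed above, holds 1 GAGGAA and 1 ATTGC match.

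**Figure D3:**
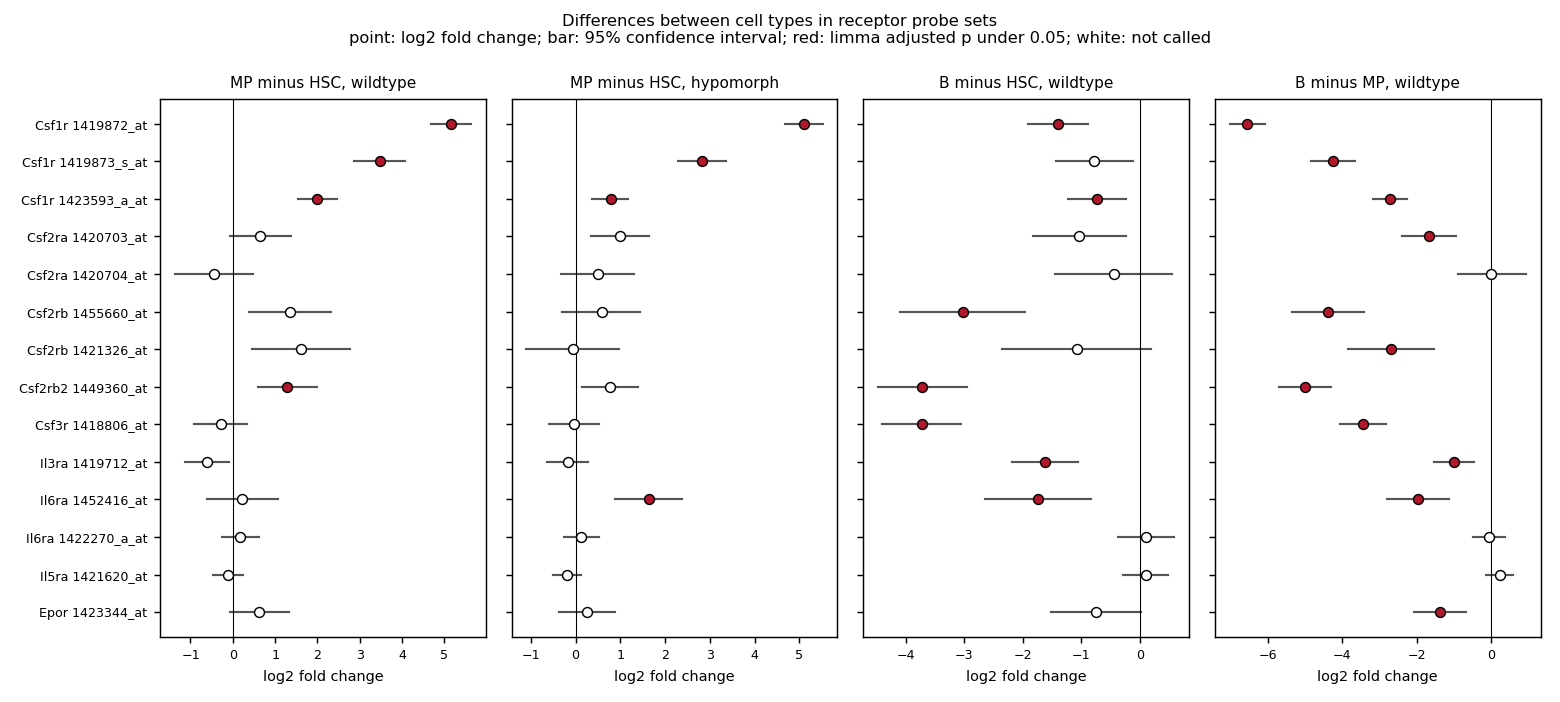
Log2 fold change (horizontal axis) of each of the 14 receptor probe sets in 4 comparisons of cell types, with points for the limma estimate and bars for its 95% interval, filled where adjusted p is under 0.05. B progenitors minus wildtype MP has 11 filled points, all below 0, and the 3 Csf1r probe sets are filled above 0 in MP minus HSC of both genotypes.

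Il6ra, the ligand-binding chain for interleukin 6, differed between MP and HSC in the hypomorph. Its first probe set (1452416_at) read 4.95 and 4.99 in B progenitors, 6.86, 7.95 and 7.38 in hypomorph MP, 6.81, 7.13 and 6.85 in wildtype MP, 5.16, 5.50 and 6.62 in hypomorph HSC, and 6.85 and 6.56 in wildtype HSC. Hypomorph HSC array 3 reached the wildtype level, while arrays 1 and 2 lay more than 1 unit under it. Il6ra was 3.11-fold higher in hypomorph MP than in hypomorph HSC (log2 fold change 1.64, SE 0.34, adjusted p 0.0157), and wildtype MP minus wildtype HSC gave 0.22 (SE 0.38, 0.738). The hypomorph call was lost without hypomorph HSC array 1 or 2 and without hypomorph MP array 2 or 3 (adjusted p 0.051 to 0.0748). The genotype value was -0.95 in HSC (95% interval -1.78 to -0.11, adjusted p 0.186) and 0.47 in MP (0.634), and their difference was -1.42 (SE 0.51, 0.162). Without hypomorph HSC array 3 the HSC value was -1.38 (adjusted p 0.0215) and the difference of the effects -1.85 (0.0225). In B progenitors Il6ra was 3.34-fold lower than in wildtype HSC (-1.74, 0.00784) and 3.90-fold lower than in wildtype MP (-1.96, 0.00261). The second probe set (1422270_a_at) had group means of 5.78 to 6.08, was called in none of the 7 comparisons, and correlated at 0.36 with the first.

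Epor, the erythropoietin receptor, read 5.91 and 5.17 in B progenitors, 6.65, 6.98 and 6.89 in hypomorph MP, 6.70, 7.36 and 6.66 in wildtype MP, 7.06, 6.21 and 6.49 in hypomorph HSC, and 5.92 and 6.63 in wildtype HSC. Neighbouring groups overlapped in the order of their means, apart from the B progenitors, whose higher array at 5.91 lay just under the lower wildtype HSC array at 5.92. It was 2.58-fold lower in B progenitors than in wildtype MP (log2 fold change -1.37, SE 0.32, adjusted p 0.00843), a call lost without B progenitor array 2 (adjusted p 0.0941). B progenitors minus wildtype HSC gave -0.74 (0.149). The genotype values were 0.31 in HSC (95% interval -0.39 to 1.01) and -0.06 in MP (-0.69 to 0.56). Gata1, the erythroid factor known to bind the Epor promoter at its GATA site, was 2.51-fold higher in hypomorph than in wildtype HSC (log2 fold change 1.33, SE 0.30, adjusted p 0.0276), with 8.34 to 8.95 against 7.15 to 7.47. This Gata1 call was lost without hypomorph HSC array 1 (0.0579) or wildtype HSC array 2 (0.183). Klf1, another erythroid factor, was 2.51 log2 units higher in wildtype MP than in wildtype HSC (SE 0.30, 0.00019).

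**Figure D4:**
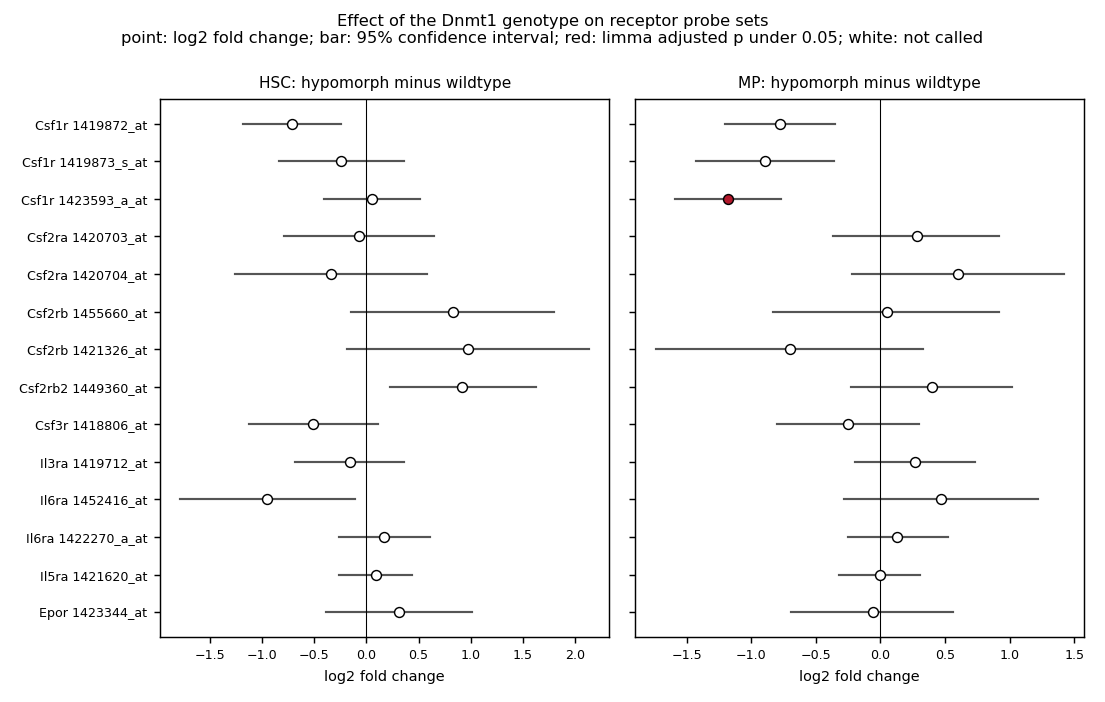
Log2 fold change of hypomorph minus wildtype (horizontal axis) for each of the 14 receptor probe sets, in HSC and in MP, with points for the limma estimate and bars for its 95% interval, filled where adjusted p is under 0.05. The only filled point is Csf1r 1423593_a_at in MP at -1.18, and in HSC the 3 beta chain probe sets lie at 0.83 to 0.97.

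Over the receptors as a list, genotype values lay on both sides of 0. In HSC the median log2 difference of the 14 probe sets was -0.01, beside -0.09 over all probe sets, and in MP 0.02 beside 0.04. Groups did not overlap between hypomorph and wildtype HSC in 3 of the 14, where 31.6% of all probe sets did not, and between hypomorph and wildtype MP in 7, where 22.2% did not. For cell types the counts were 11 for B progenitors against wildtype MP (48% of all probe sets), 11 for B progenitors against wildtype HSC (56.5%), 7 for wildtype MP against HSC (48.4%) and 8 for hypomorph MP against HSC (20%). Taken by gene and first probe set, 8 of the 9 receptors were called lower in B progenitors than in wildtype MP, with Il5ra the exception, where 16.5% of 18194 genes were. Likewise 6 of 9 were called lower than in wildtype HSC, where 21.4% of all genes were.

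The genes that act with these receptors were read from lists, each gene by its brightest probe set, and the shares beside their counts are over all 18194 genes read the same way. Of the 8 ligands measured of 11 listed, none was called for genotype in either cell type. In wildtype MP relative to wildtype HSC 1 rose and 2 fell, where 8.77% of all genes rose and 12.8% fell. The falls were Il3 (log2 fold change -0.63, SE 0.17, adjusted p 0.0221) and Il34 (-0.61, SE 0.17, 0.0311). Il3 stayed called in 15 of 21 alternative settings and Il34 in 15 of 22. Il6, the ligand of Il6ra, was higher in MP than in HSC in the wildtype (log2 fold change 3.07, SE 0.42, adjusted p 0.000468) and in the hypomorph (1.74, SE 0.38, 0.0198). It averaged 6.39 in wildtype MP and 3.33 in wildtype HSC, the latter under 4.64, the median of all values. Of 22 other cytokine receptors measured, 3 rose and 10 fell in B progenitors relative to wildtype HSC, where 10.2% of all genes rose and 21.4% fell. Il7r, the receptor of the B lineage cytokine interleukin 7, rose by 7.91 (SE 0.32, 6.79e-09) and Il2ra by 5.16 (SE 0.22, 1.14e-08), while Kit, the stem cell factor receptor, fell by 5.13 (SE 0.53, 1.97e-05). In hypomorph relative to wildtype HSC, where 3.33% of all genes fell and 2.98% rose, 1 of the 22 fell, Tnfrsf1b (-1.17, SE 0.31, 0.0492), which stayed called in 7 of 23 alternative settings. Il6st, which transmits the interleukin 6 signal, was lower in B progenitors than in wildtype MP (-2.68, SE 0.59, 0.00568), and its genotype value was -1.54 in MP (0.329). The Il6 call in the hypomorph was lost without hypomorph HSC array 2 or hypomorph MP array 1 or 2, and this Il6st call without B progenitor array 1. Over the alternative settings the Il6st value in B progenitors minus MP ran from -3.96 to -0.65. In B progenitors minus wildtype HSC Il6st differed by -2.71 (adjusted p 0.00732), and by -0.33 for the mean of its probe sets (0.153).

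Kinases, adaptors and Stat factors of the receptors numbered 22 measured genes, of which 11 fell and 1 rose in B progenitors relative to wildtype HSC (21.4% and 10.2% of all genes). Jak2, the kinase bound by most of these receptors, differed by -0.94 there (adjusted p 0.0101), a call lost without B progenitor array 1 or wildtype HSC array 2, with values of 9.04 to 9.33 in B progenitors and 9.71 to 10.55 in wildtype HSC. The call was on this probe set, and the mean of the Jak2 probe sets gave -0.35 and was not called (adjusted p 0.504). Stat5a and Stat5b, which act downstream, were lower in B progenitors than in wildtype HSC as well (-1.06, adjusted p 0.00727, and -1.49, 0.000933). Over the alternative settings Stat5b ran from -1.58 to -0.65 and stayed called. For genotype, 3 of the 22 fell in hypomorph HSC (3.33% of all genes) and limma called none in MP. The HSC calls included Gab1 and Plcg2, an adaptor and a phospholipase (-1.52, adjusted p 0.00607, and -0.83, 0.0317). Both calls were lost without wildtype HSC array 2 (0.0553 and 0.251), and that of Plcg2 also without hypomorph HSC array 1 or 2, hypomorph MP array 3 or wildtype MP array 3.

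Of 20 measured inhibitors of receptor signalling, 8 fell and 2 rose in wildtype MP relative to HSC, where 12.8% of all genes fell and 8.77% rose. In hypomorph MP relative to HSC 4 fell, where 4.18% of all genes did. Cish, a feedback inhibitor induced by Stat5, read 8.28 to 9.18 in hypomorph HSC and 10.05 to 10.12 in wildtype HSC, with means of 7.06 to 7.12 in the other groups. It fell in hypomorph relative to wildtype HSC (log2 fold change -1.48, SE 0.25, adjusted p 0.00661) and in wildtype MP relative to wildtype HSC (-2.97, SE 0.25, 1.57e-05). Socs2, of the same family, read 6.01 to 6.98 in hypomorph MP and 4.14 to 5.15 in wildtype MP, against 7.50 to 8.06 in hypomorph HSC and 8.06 to 8.99 in wildtype HSC. Its genotype effect in HSC minus that in MP was -2.62 (SE 0.55, adjusted p 0.0333) on this probe set, and -0.80 for the mean of the Socs2 probe sets (0.105). The Cish call for genotype was lost without wildtype HSC array 2 (0.0512). The Socs2 call was lost without hypomorph HSC array 2, wildtype HSC array 1, hypomorph MP array 2 or 3, or wildtype MP array 1 or 3 (0.0662 to 0.0911). Socs3, which restrains Il6 and G-CSF signals, fell in hypomorph MP relative to hypomorph HSC (-2.22, SE 0.37, 0.00424).

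Among 15 target genes of Stat5 and Stat3, 1 rose in hypomorph HSC (2.98% of all genes) and 1 in hypomorph MP (0.187%), and both were Ccnd1, a cyclin that drives cells into replication. It read 9.09 to 9.68 in hypomorph HSC against 5.60 to 7.56 in wildtype HSC, and 7.98 to 8.26 in hypomorph MP against 5.15 to 6.27 in wildtype MP. The log2 fold changes were 2.73 (SE 0.49, adjusted p 0.00871) in HSC and 2.47 (SE 0.44, 0.0493) in MP. The HSC call was lost without wildtype HSC array 2 (1.75, 0.066), and the MP call held in 10 of 23 alternative settings and was lost without any of the 6 MP arrays, either B progenitor array, or hypomorph HSC array 1 or 2. Of the same list 6 fell and 1 rose in wildtype MP relative to wildtype HSC (12.8% and 8.77% of all genes). Pim2, a survival kinase, fell by 2.40 (SE 0.31, 0.000274) and Pim1 by 1.91 (SE 0.34, 0.00237).

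Of 15 measured transcription factors that bind receptor genes, 10 fell and 2 rose in B progenitors relative to wildtype MP, where 16.5% of all genes fell and 8.12% rose. Cebpa, a factor of granulocyte and monocyte fate, read 3.95 to 4.19 in B progenitors and 8.21 to 8.58 in wildtype MP (log2 fold change -4.33, SE 0.29, adjusted p 4.57e-07). Spi1, which encodes PU.1, differed by -1.62 there (SE 0.24, 0.000356), and Gata1 by -4.30 (SE 0.30, 7.81e-07). In wildtype MP relative to wildtype HSC 6 rose and 3 fell (8.77% and 12.8% of all genes), and the rises included Irf8, a monocyte factor, by 4.04 (SE 0.35, 1.77e-05) and Cebpa by 2.22 (SE 0.29, 0.000297). For genotype in HSC, Gata1 rose and Runx1 fell (-1.12, SE 0.27, adjusted p 0.0322, called in 15 of 23 alternative settings), while Cebpa differed by 0.89 (0.0983) and Spi1 by -0.08. None of the 15 was called for genotype in MP.

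The genes whose values ran most alike to each receptor over the 13 arrays were looked up among 6995 genes whose group means span at least 1 log2 unit. Csf1r ran with Cd300lb (Pearson r 0.99), Igsf6 (0.986) and Idh1 (0.979). Csf2rb2 ran with Them7 (0.987), Atic (0.986) and Slco3a1 (0.979), and Csf2rb with Slco3a1 (0.979), Uck2 (0.978) and Fyb (0.973). For Csf3r they were Ctsd, Emilin1 (both 0.986) and Dcps (0.985), and for Il3ra Iqce (0.97), Cyb5r3 (0.96) and Emp3 (0.955). Likeness was lower for Csf2ra (Hfe, 0.942), Il6ra (Tpcn1, 0.956) and Epor (Adap1, 0.926), and Il5ra was left out because its means span too little. Among the receptors themselves, Csf3r and Csf2rb2 correlated at 0.90, Csf2ra and Epor at 0.87, and Csf1r and Il3ra at 0.14. The arrays of a cell type are shared by all these pairs, so the values describe and test nothing.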

How the data were processed

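Arrays of sorted mouse bone marrow populations were measured on an Affymetrix platform. The values were deposited after RMA, per the submitters' processing notes, with no version named. The deposited values run from 1.93 to 14.99 and are read as log2 intensities from that range. For 45101 probe sets, 13 columns give a first normalization of all arrays, which was used. A further 11 give a second one of the HSC and MP arrays, which served as an alternative and adds no replicates. Probe sets with 1 gene symbol numbered 34958, with several 932 and with none 9211. Array medians ran from 4.56 to 4.74, and the number of arrays limits the precision.

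A single limma model (3.58.1, in R 4.3.3) fitted all 5 groups (8 residual degrees of freedom) with no filter on dim probe sets and gave moderated tests for 7 comparisons. P-values were adjusted by Benjamini-Hochberg over all probe sets in each comparison, and an adjusted p under 0.05 is a call. Promoter windows are those of RefSeq, build GRCm38.p6. None was taken for Csf1r, whose chromosome was left out when the receptor windows were taken, or for Csf2rb. The promoters of these genes were therefore not compared with the others.

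The receptors and gene lists were chosen with earlier results of these data known. The rule for names took every receptor probe set, Dnmt1, up to 2 called genes with the largest rise and fall in each list, 12 named signalling genes and factors whatever their values, and the 3 genes most like each receptor. The alternatives were the second normalization, the replicate number as a block, the arrays compared alone, a trended and robust prior, array weights, filters at the median (4.64) and the 75th percentile (7.1), 1 probe set per gene, the mean of a gene's probe sets, centring on the median, and leaving out each array in turn.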

Additional observations from a re-analysis of the deposited data

Results flagged for a closer look

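The effect of the Dnmt1 genotype on Csf1r differed between HSC and MP on 1 of its 3 probe sets (1423593_a_at), by 1.23 on the log2 scale (HSC effect minus MP effect, limma adjusted p 0.0463). The genotype effect itself was 0.05 in HSC and -1.18 in MP. The genotype effect on Socs2 differed by -2.62 in the same test (adjusted p 0.0333). It was -0.80 for the mean of the Socs2 probe sets (adjusted p 0.105) and -2.67 with the replicate number as a block (0.0749).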

How the results depend on the processing

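With 2 or 3 arrays a group, leaving out 1 array moved the number of receptor probe sets called from 0 to a range of 0 to 2 for genotype in HSC, from 1 to 0 to 1 for genotype in MP (0 without any of the 6 MP arrays), from 1 to 0 to 3 for the difference of these effects, from 4 to 3 to 7 for wildtype MP minus HSC, and from 4 to 2 to 5 for hypomorph MP minus HSC. The count of 7 came without wildtype HSC array 2, and the count of 2 for genotype in HSC came without hypomorph HSC array 3. Counts for B progenitors stayed at 7 to 9 against HSC and 10 to 11 against MP. The second normalization gave 1 call for genotype in HSC, on the brightest Csf1r probe set, 0 in MP and 0 for the difference of effects. Array weights gave 1, 3 and 3, the arrays compared alone gave 2 in MP, the mean of a gene's probe sets gave 1 in MP, and the trended and robust prior gave 0 for the difference of effects. The cause of these changes was not tested. With the HSC arrays fitted alone, Gab1, Plcg2, Tnfrsf1b, Runx1, Cish, Gata1 and Ccnd1 were no longer called for genotype in HSC, at the same fold changes. Dnmt1 itself also fell short there (-2.75, adjusted p 0.0513), and 42 of all probe sets were called, against 1892 with all arrays. Dim probe sets such as Il5ra and the second Csf2ra and Il6ra probe sets limit what their differences can show, since background was not measured here.

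Replicate numbers are shared between groups. Deviations of same-numbered arrays correlated at -0.22 to 0.26, and the numbers were not taken to pair the arrays. Differently numbered arrays were not set beside them, so these values do not settle whether the arrays are paired. With the replicate number as a block, 0 receptor probe sets were called for the difference of effects, Csf1r 1423593_a_at having 1.17 there (adjusted p 0.076). The block turned Csf1r 1423593_a_at to -0.01 and Csf2ra 1420703_at to 0.03 in hypomorph minus wildtype HSC.

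Of the values of receptor probe sets under the alternatives, 1952 kept their direction and side of the threshold, 55 passed it newly, 43 fell short of it and 57 turned sign. All that turned sign were uncalled in both settings. The 1952 include fits that left out an array outside the groups compared. Such fits leave the log2 difference unchanged, so its direction could not turn there. Array weights gave 0.04 for Csf1r 1419873_s_at, -0.12 for Csf1r 1423593_a_at and -0.00087 for Epor in hypomorph minus wildtype HSC, and 0.08 for Epor in MP. They gave -0.13 for Il6ra 1422270_a_at and -0.08 for Epor in the difference of effects, and -0.08 for Csf2ra 1420704_at and 0.02 for Il6ra 1422270_a_at in B progenitors minus MP. The second normalization gave -0.10 for Csf1r 1419872_at and -0.04 for Il6ra 1422270_a_at in the difference of effects. Centring on the median gave 0.0013 for Csf2ra 1420703_at in hypomorph minus wildtype HSC and 0.02 for Il5ra in wildtype MP minus HSC. The mean of its probe sets gave -0.33 for Csf2rb in hypomorph minus wildtype MP.

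Leaving out 1 array gave these ranges. In hypomorph minus wildtype HSC they were -0.57 to 0.08 for Csf1r 1419873_s_at, -0.10 to 0.19 for Csf1r 1423593_a_at, -0.70 to 0.56 for Csf2ra 1420703_at, -1.24 to 0.55 for Csf2ra 1420704_at, -0.57 to 0.24 for Il3ra, -0.01 to 0.19 for Il5ra and -0.04 to 0.66 for Epor. In hypomorph minus wildtype MP they were -0.09 to 0.18 for Csf2rb 1455660_at, -0.03 to 0.02 for Il5ra and -0.19 to 0.16 for Epor. In the difference of effects they were -0.04 to 0.17 for Csf1r 1419872_at, -0.98 to 0.28 for Csf2ra 1420703_at, -0.07 to 1.12 for Csf2rb2, -0.69 to 0.18 for Csf3r, -0.08 to 0.13 for Il6ra 1422270_a_at and -0.01 to 0.19 for Il5ra. In MP minus HSC they were -1.35 to 0.45 for Csf2ra 1420704_at and -0.72 to 0.14 for Csf3r in the wildtype, and -0.79 to 0.36 for Csf2rb 1421326_at and -0.30 to 0.15 for Csf3r in the hypomorph. In B progenitors minus HSC they were -1.34 to 0.45 for Csf2ra 1420704_at, -0.16 to 0.38 for Il6ra 1422270_a_at and -0.12 to 0.33 for Il5ra, and in B progenitors minus MP -0.15 to 0.16, -0.33 to 0.21 and -0.01 to 0.44 for the same probe sets.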
